A study of Mus musculus with 20 samples.

Results

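The effect of the genotype label over both diets was measured by comparing 10 liver libraries labelled LXRα-/- with 10 WT libraries, with diet as a covariate. Of 55385 gene IDs in the table, 18905 passed a filter on low counts and were tested. Among these, 267 genes had the 10 libraries of one label wholly apart from the 10 of the other, with 187 higher and 80 lower in the libraries labelled LXRα-/-. These 267 genes are called non-overlapping here, and they were chosen from the same values as the test, so that their separation is a description. RNA was sequenced from mouse liver at week 24 in 4 groups of 5 libraries: WT on chow, WT on a high-fat diet (HFD), LXRα-/- on chow and LXRα-/- on HFD. In the titles the genotype is LXRα-/-, but the genotype field names an LXR knockdown for the same 10 libraries. Neither the strain, sex and allele nor the animal behind each library is given in the labels, and they name no batch. Although the tissue label is liver, the RNA protocol names an adipose type.

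LXRα, encoded by Nr1h3, is a nuclear receptor that is activated by oxysterols and binds DNA together with RXR. In liver it switches on genes of cholesterol efflux, of fatty acid synthesis through Srebf1 and Scd1, and of bile acid and sterol excretion, and in resident liver macrophages, the Kupffer cells, it is needed for identity genes such as Cd5l. Its relative LXRβ, encoded by Nr1h2, is present in most tissues and shares many targets.

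Nr1h3, the targeted gene, did not check the labels. The WT chow libraries held 40.1, 32.8, 35.9, 41.3 and 45.3 FPKM (fragments scaled for gene length and library size), and the WT HFD libraries 20.6, 18.7, 24.5, 14.3 and 17.5 FPKM. The libraries labelled LXRα-/- held 46.6, 66.1, 59.0, 7.89 and 59.8 FPKM on chow and 77.2, 10.3, 67.1, 73.9 and 70.9 FPKM on HFD. By FPKM, replicate 4 of the chow group and replicate 2 of the HFD group labelled LXRα-/- were thus below every WT library, while the other 8 were above every WT library. The mean difference was 0.68 on the log2(FPKM + 1) scale, with p = 0.128 in an exact two-sided permutation test within each diet (63504 arrangements). It was 0.95 with p = 0.00737 without the first of these libraries and 0.95 with p = 0.0215 without the second, by the same exact test. In edgeR's quasi-likelihood test Nr1h3 reached log2 0.85, SE 0.34, adjusted p = 0.0599, and Nr1h2 reached log2 0.44, SE 0.20, adjusted p = 0.0983, so that neither passed the threshold of 0.05. Nr1h3 passed without the first library (log2 1.01, adjusted p = 0.0089) or the second (log2 0.95, adjusted p = 0.0196), and Nr1h2 passed without WT HFD replicate 2 (log2 0.53, adjusted p = 0.0462) or LXRα-/- HFD replicate 2 (log2 0.53, adjusted p = 0.029). A gene-level count does not show whether a deleted exon is missing, and exon counts were not used here. All directions that follow rest on the labels and read as LXRα-/- minus WT.

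**Figure D1:**
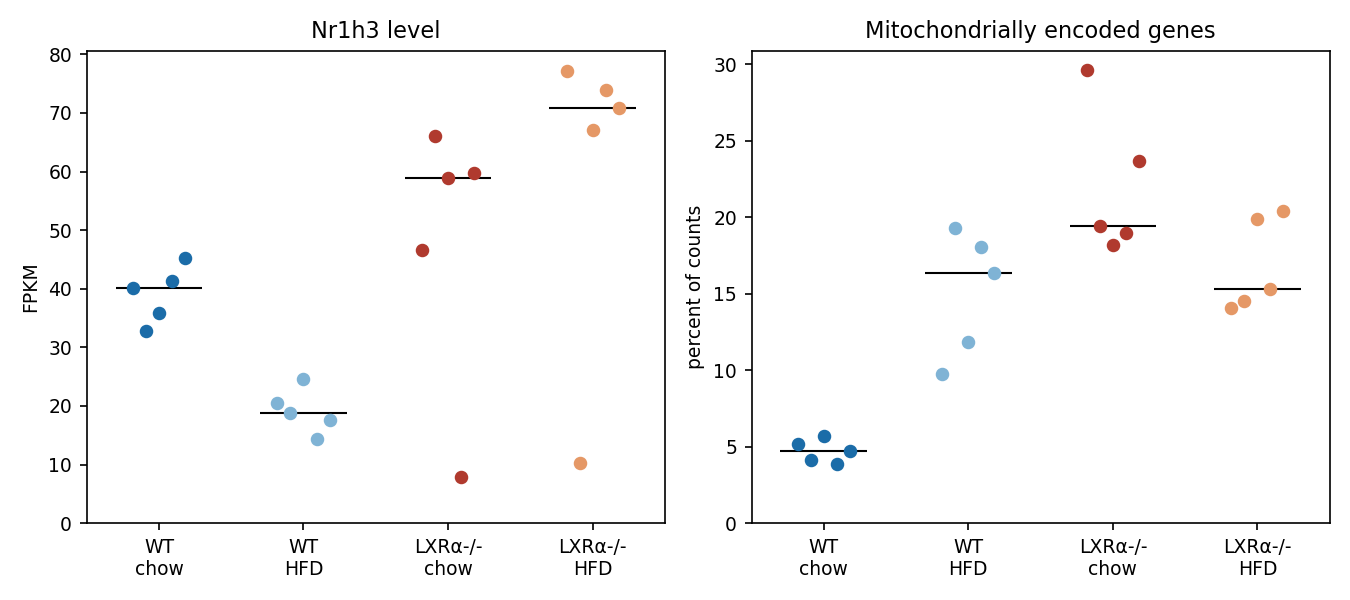
The left panel plots the Nr1h3 level in FPKM and the right panel the percent of counts from mitochondrially encoded genes in each of 20 libraries, by group, with the group median as a bar. In the left panel 8 libraries labelled LXRα-/- lie above every WT library and 2 lie below, and in the right panel the WT chow libraries lie at 3.89% to 5.67%, below all others.

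Total counts ranged from 75549139 to 108889938 per library. Mitochondrially encoded genes took 3.89% to 5.67% of the counts in WT chow, 9.77% to 19.3% in WT HFD, 18.2% to 29.6% in LXRα-/- chow and 14.1% to 20.4% in LXRα-/- HFD. The 5 WT chow libraries therefore stood apart from the other 15, and on chow this share and the genotype label cannot be told apart. Summed FPKM of 15 hepatocyte markers lay between 27720 and 80285 in every library, and that of the adipocyte markers between 25.1 and 1189. Adipocyte markers summed to 25.1 to 539 FPKM in WT and 285 to 1189 FPKM in the libraries labelled LXRα-/-. Most of this sum came from Car3 and Cfd, with means of 484 and 49.7 FPKM over all libraries. Adipoq had a mean of 0.362 FPKM and was lower (log2 -4.68), and the median log2 difference of the list was -0.41. The sum therefore does not stand for the list.

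The genotype term was called in 5722 of 18905 genes (30.3%) at an adjusted p under 0.05, with 2931 higher (15.5%) and 2791 lower (14.8%). Non-overlap was found in 1.41% of the tested genes, in 0.989% with the higher and in 0.423% with the lower direction, and 266 of the 267 genes were called. March1 was the exception, with an adjusted p of 0.0577. The median log2 difference of the 187 higher genes was 1.40, with 1.87 on chow and 0.96 on HFD. That of the 80 lower genes was -1.08, with -1.44 on chow and -0.68 on HFD. The difference was larger on chow in 246 of the 267 genes (92.1%), against 91.1% of the 5722 called genes and 75.4% of all tested genes. As3mt and Ints3, the genes just inside the limit at a mean of at least 2 FPKM, had gaps of 0.0002 and 0.002 between the labels on the log2 scale, and Rtcb and Rufy3 just outside it overlapped by 0.002 and 0.001.

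A test of the genotype by diet interaction, in a model with 1 mean per group, called 85 of the 267 genes (31.8%), and the genotype difference of all 85 was larger on chow. It called 36.5% of the 5722 genes called for genotype and 19.4% of all tested genes, so that the share among the 267 was not above that of genes called for genotype. The same model called 265 of the 267 on chow (43.4% of all genes) and 36 on HFD (0.455% of all genes). The diet term of the additive model called 1 of the 267, Cyp2c70, against 1.13% of all genes. In a fit of the HFD libraries alone, 93 of the 267 were called, 75 higher and 18 lower, where 2.02% of all genes were called. Without the 5 WT chow libraries, 60 were called (0.782% of all genes), and with the mitochondrial share as a covariate 21 were called (0.238% of all genes). Since the 267 were chosen on the same libraries, nothing is read from these counts against the shares of all genes. The part of the mitochondrial share in the other differences was not tested. The 21 genes were Ddb2, H2-M2, Asb2, Adamdec1, Clec4b1, Ccr3, Slc17a3, Gcnt1, Rnf152, Clec4a1, Amz1, Fcgr4, Sirpb1a and 9030622O22Rik, which were higher, and Cd5l, Scarb1, Kcna2, Kcnj16, Timd4, Cyp2c70 and 1810008I18Rik, which were lower. No gene of the 267 changed sign under library totals, totals without mitochondrial genes or RLE size factors in place of TMM. Since the genes were chosen for separated values under TMM, a kept sign was likely beforehand, and nothing is read from it. Under 5 scalings of the values, 145 of the 267 were non-overlapping in each, with 130 higher and 15 lower. The 15 included Cd5l, Timd4, Cdh5, Kcnj16, Kcna2, Ccl24, Scarb1 and Litaf.

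**Figure D2:**
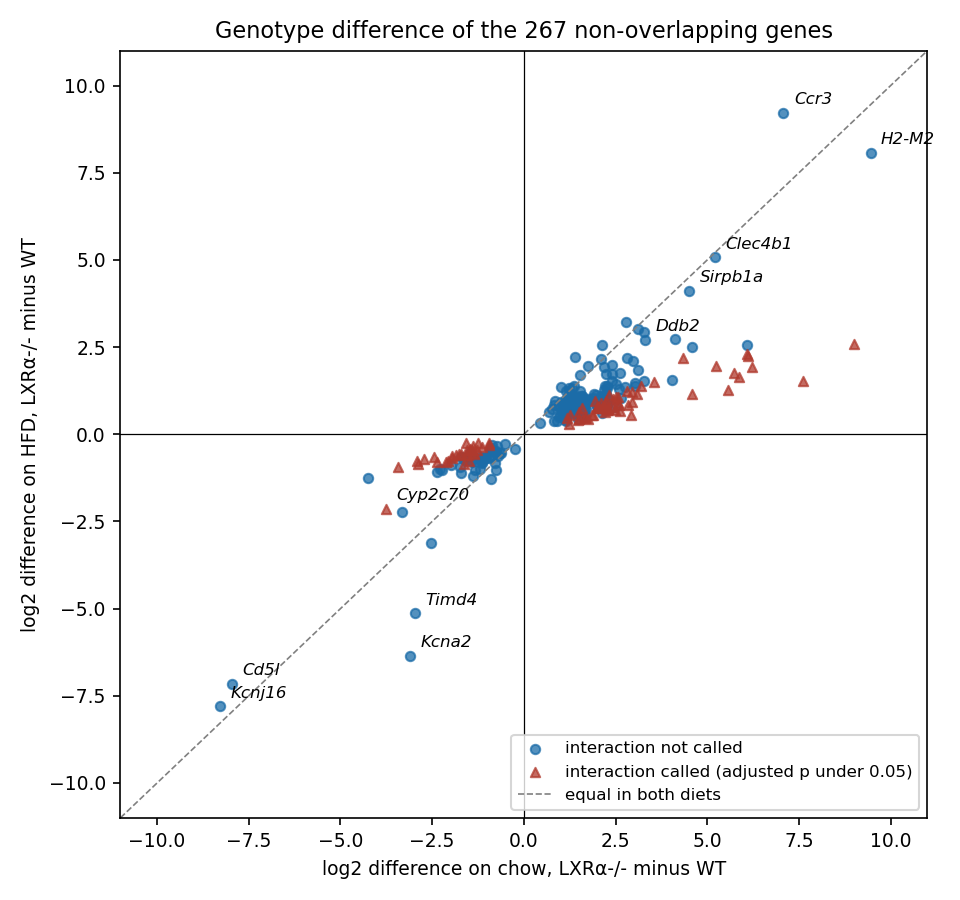
Each point is one of the 267 non-overlapping genes, with the fitted log2 genotype difference on chow on the horizontal axis and on HFD on the vertical axis. Gm38197, with 0 counts in all WT libraries, is not drawn. Triangles mark the 85 genes with a called interaction, all with the larger difference on chow, while Cd5l, Ddb2 and Clec4b1 lie near the dashed line of equal differences. The fitted values of Kcnj16 and H2-M2, each with 0 counts in one label, depend on the prior count.

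Several genes of resident liver macrophages fell, with 13 of 19 tested Kupffer cell markers called lower, where 14.8% of all tested genes were. Cd5l, a secreted protein of Kupffer cells, ranged from 20.4 to 114 CPM with a median of 43.1 in the WT libraries and from 0 to 1.15 CPM with a median of 0.187 in those labelled LXRα-/-, where CPM are counts per 1000000 of the TMM-scaled library total. Every WT library lay above every library labelled LXRα-/-, with a gap of 4.15 on the log2 scale, the widest among the 116 non-overlapping genes with a mean of at least 2 FPKM. Without LXRα-/- chow replicate 1, the library with 1.15 CPM, the difference was -8.19. The fall (log2 -7.58, SE 0.65, adjusted p = 1.24e-06) was -7.99 on chow and -7.16 on HFD, and the interaction was not called (adjusted p = 0.628). Replicate 4 of the chow group and replicate 2 of the HFD group, the libraries labelled LXRα-/- with little Nr1h3, held 0.194 and 0 CPM of Cd5l and did not stand apart from the other 8. In bulk RNA, fewer Kupffer cells and less Cd5l RNA per cell cannot be told apart. Timd4, a receptor for phosphatidylserine on resident macrophages, ranged from 1.64 to 5.22 CPM with a median of 2.63 in the WT libraries and from 0 to 0.662 CPM with a median of 0.150 in those labelled LXRα-/-, again with no overlap (log2 -3.97, SE 0.61, adjusted p = 3.98e-04). Cdh5, which encodes VE-cadherin of endothelium and stands in both the Kupffer and the endothelial list, fell less (log2 -1.12, SE 0.15, adjusted p = 2.00e-04).

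Of 19 tested Kupffer cell markers, 13 were lower and 0 higher, with a median log2 difference of -1.12, against 0.05 over all tested genes. Folr2, a folate receptor of macrophages, ranged from 1.84 to 10.5 CPM with a median of 5.63 in the WT libraries and from 0.156 to 2.63 CPM with a median of 0.744 in those labelled LXRα-/-, so that its labels overlapped (log2 -2.46, SE 0.33, adjusted p = 2.00e-04). Fcna, which encodes a ficolin, also overlapped (log2 -1.12, SE 0.15, adjusted p = 2.00e-04). The summed FPKM of the Kupffer markers was 137 to 358 in WT and 101 to 191 in the libraries labelled LXRα-/-, so the labels overlapped for the whole list. In the model with 1 mean per group, 4 of the 19 were lower on HFD, where 0.455% of all genes were called.

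**Figure D3:**
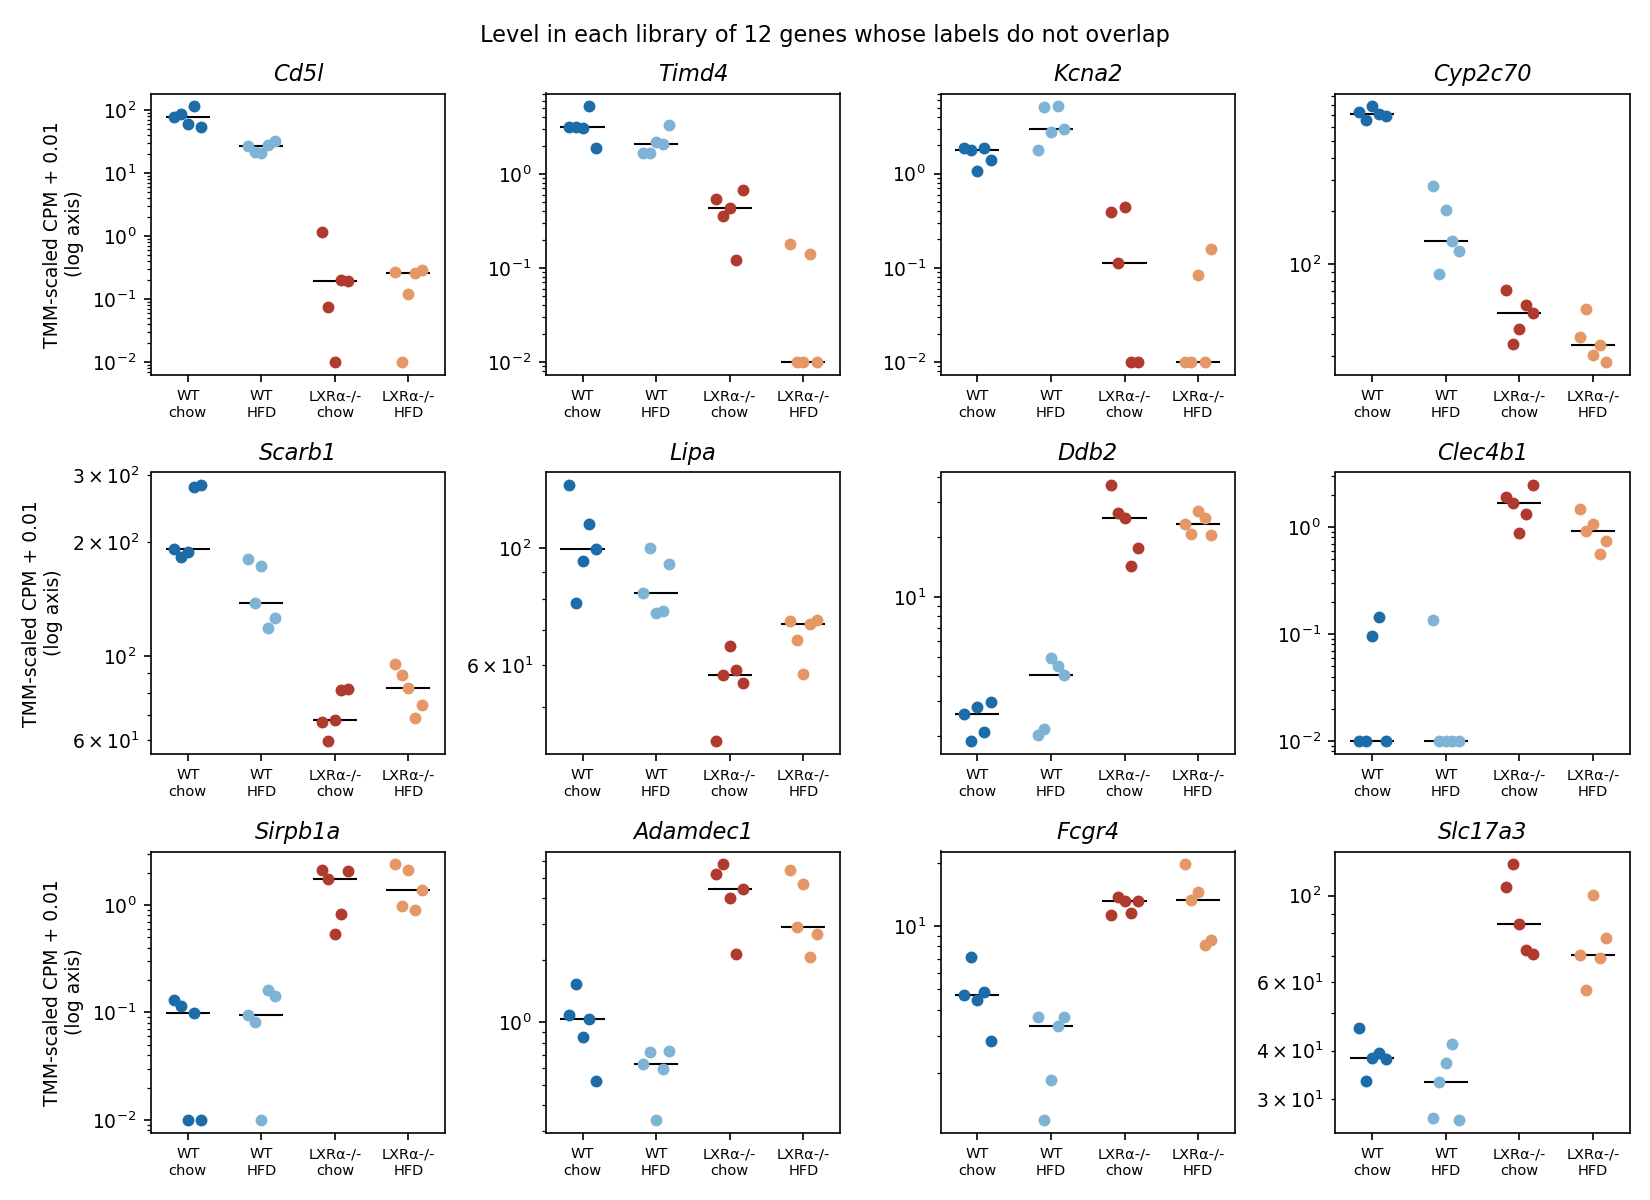
Each panel plots one gene, with the TMM-scaled CPM plus 0.01 of each library on a log axis by group and the group median as a bar. In each of the 12 panels all 10 WT libraries lie on one side of all 10 libraries labelled LXRα-/-, as for Cd5l, where WT starts at 20.4 CPM and LXRα-/- ends at 1.15 CPM.

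Besides Cd5l and Timd4, the non-overlapping genes with the largest fitted falls were Kcnj16, Kcna2 and Cyp2c70, which encode potassium channel subunits and a bile acid enzyme. Kcnj16, a subunit of inwardly rectifying potassium channels, had 318 counts in the WT libraries, 10 to 61 in each, and 0 in all 10 libraries labelled LXRα-/-. With a floor of 3 counts over the 10 libraries it was at least 105.7-fold lower, which covers counting error only. Kcna2, a voltage-gated potassium channel, ranged from 1.06 to 5.18 CPM with a median of 1.87 in the WT libraries and from 0 to 0.433 CPM with a median of 0.0371 in those labelled LXRα-/- (log2 -4.59, SE 0.85, adjusted p = 9.28e-04). Both channel genes were low in abundance. The windows around the RefSeq gene starts (250 bases before to 50 after, GRCm38.p6) of 4 genes with such falls are given for their sequence, 5′ to 3′ on the gene's strand. The capitals mark AGGTCA, the core half-site bound by many nuclear receptors, searched on both strands. The windows are chr3:87357631-87357930 (plus strand) for Cd5l, chr11:46810549-46810848 (plus strand) for Timd4, chr19:40187237-40187536 (minus strand) for Cyp2c70 and chr11:110967783-110968082 (plus strand) for Kcnj16, which has further starts.
Cd5l: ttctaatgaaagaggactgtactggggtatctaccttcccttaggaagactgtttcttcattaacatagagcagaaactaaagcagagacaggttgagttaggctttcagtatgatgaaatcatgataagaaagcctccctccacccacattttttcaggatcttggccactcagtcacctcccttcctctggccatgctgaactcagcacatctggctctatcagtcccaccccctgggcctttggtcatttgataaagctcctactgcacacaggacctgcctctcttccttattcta
Timd4: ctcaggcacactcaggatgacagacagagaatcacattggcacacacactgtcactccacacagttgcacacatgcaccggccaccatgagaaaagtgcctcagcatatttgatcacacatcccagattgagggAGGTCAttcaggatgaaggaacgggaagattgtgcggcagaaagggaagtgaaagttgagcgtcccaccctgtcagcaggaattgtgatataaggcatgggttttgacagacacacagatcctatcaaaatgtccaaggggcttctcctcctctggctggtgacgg
Cyp2c70: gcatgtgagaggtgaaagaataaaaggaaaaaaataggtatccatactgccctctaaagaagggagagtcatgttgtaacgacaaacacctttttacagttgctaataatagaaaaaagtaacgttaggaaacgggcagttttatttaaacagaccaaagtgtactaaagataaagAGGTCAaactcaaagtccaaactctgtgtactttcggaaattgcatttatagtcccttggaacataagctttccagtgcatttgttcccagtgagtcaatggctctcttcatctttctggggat
Kcnj16: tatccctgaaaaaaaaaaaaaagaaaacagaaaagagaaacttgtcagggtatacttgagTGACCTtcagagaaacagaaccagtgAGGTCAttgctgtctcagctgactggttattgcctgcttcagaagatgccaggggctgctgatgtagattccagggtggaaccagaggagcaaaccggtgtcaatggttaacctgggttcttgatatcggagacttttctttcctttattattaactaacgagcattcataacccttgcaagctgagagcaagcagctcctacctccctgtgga
AGGTCA was found 0 times in the Cd5l window, 1 time each in those of Timd4 and Cyp2c70 and 2 times in that of Kcnj16. Over 27025 genes with a window, 16.0% held it. A window was found for 196 of the 267 non-overlapping genes, and 26 of these (13.3%) held AGGTCA, with 14 of 137 higher genes (10.2%) and 12 of 59 lower genes (20.3%). The exact repeat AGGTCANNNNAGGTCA stood in 3 of the 27025 windows and in 0 of the 196. The 27025 windows were not limited to tested genes, and their median GC content was 52.7%, against 61% in higher and 59.7% in lower genes. Nothing is read from the shares with AGGTCA. A match describes letters only.

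The receptor genes described next, the sensor and interferon-related genes and the ligand and channel genes were, apart from Fcgr4, picked one by one after their values were seen, and no count over a list stands behind them. Clec4b1, a C-type lectin receptor, ranged from 0 to 0.134 CPM with a median of 0 in the WT libraries and from 0.552 to 2.45 CPM with a median of 1.19 in those labelled LXRα-/- (log2 5.14, SE 0.77, adjusted p = 3.51e-04). Its difference was 5.19 on chow and 5.08 on HFD, and 6.02 without WT HFD replicate 1. Clec4a1, a lectin of the same family, ranged 0.799 to 2.67 CPM in the WT libraries and 3.02 to 6.28 CPM in those labelled LXRα-/- (log2 1.27, SE 0.20, adjusted p = 3.94e-04). Sirpb1a, a signal-regulatory protein, ranged 0 to 0.150 CPM in the WT libraries and 0.524 to 2.38 CPM in those labelled LXRα-/- (log2 4.31, SE 0.59, adjusted p = 2.14e-04), and its paralog Sirpb1c was also higher (log2 2.996, and 3.63 without WT chow replicate 2). Klra2, of the Ly49 family, and Lilrb4a and Lilr4b, of the leukocyte immunoglobulin-like receptors, had log2 differences of 2.19, 1.98 and 1.93. These families hold near-identical copies, and since the counting rule for shared reads is not given in the sources used here, the split between paralogs is uncertain. Fcgr4, a receptor for immunoglobulin G, ranged from 1.19 to 7.14 CPM with a median of 3.70 in the WT libraries and from 8.08 to 19.6 CPM with a median of 13.1 in those labelled LXRα-/- (log2 1.80, SE 0.24, adjusted p = 2.00e-04). Fcer1g, the signalling chain that Fc receptors and several lectins share, ranged 8.58 to 15.1 CPM in the WT libraries and 15.5 to 36.2 CPM in those labelled LXRα-/- (log2 1.12, SE 0.16, adjusted p = 2.73e-04). Lilr4b overlapped between the labels under RLE size factors.

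Ccr3, the eotaxin receptor of eosinophils and other cells, had 4 counts in the 10 WT libraries together and 1008 in those labelled LXRα-/- (log2 7.64, SE 0.70, adjusted p = 2.60e-06, with log2 9.61 without WT chow replicate 5). Ccl24, which encodes a ligand of Ccr3, moved the other way. It ranged from 0.936 to 3.02 CPM with a median of 1.40 in the WT libraries and from 0 to 0.662 CPM with a median of 0.207 in those labelled LXRα-/- (log2 -2.83, SE 0.52, adjusted p = 9.08e-04). H2-M2, a class I-like gene of the major histocompatibility complex, had 0 counts in all 10 WT libraries and 591 in the others, 19 to 226 in each, and was at least 197.5-fold higher by the floor of 3 counts over the group. LXRα-/- chow replicate 1 held 226 of the 591 counts, and without it the bound was 133.6-fold and the fitted log2 difference 8.23 in place of 8.89. Adamdec1, a metalloprotease of phagocytes, ranged from 0.329 to 1.52 CPM with a median of 0.713 in the WT libraries and from 2.05 to 5.79 CPM with a median of 4.17 in those labelled LXRα-/- (log2 2.34, SE 0.25, adjusted p = 1.63e-05), with 2.10 on chow and 2.57 on HFD. Asb2, part of a ubiquitin ligase, ranged 1.01 to 2.75 CPM in the WT libraries and 3.49 to 9.23 CPM in those labelled LXRα-/- (log2 1.60, SE 0.22, adjusted p = 2.00e-04). All of these genes had 10 libraries on either side of a gap.

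Tlr1 and Tlr3, receptors for bacterial lipopeptides and double-stranded RNA, rose by 1.97 and 1.03 on the log2 scale. Casp1, the inflammasome protease, rose (log2 2.11, SE 0.37, adjusted p = 7.06e-04), more on chow (3.07) than on HFD (1.16, interaction adjusted p = 0.0186). Mndal, an interferon-inducible nuclear gene, rose (log2 1.72, SE 0.26, adjusted p = 3.72e-04). Bst2 or tetherin, which holds budding virus at the membrane, ranged 119.9 to 287 CPM in the WT libraries and 52.7 to 108 CPM in those labelled LXRα-/- and fell (log2 -1.10, SE 0.17, adjusted p = 4.36e-04). Ifi27, another interferon-induced gene, ranged 58.4 to 118 CPM in the WT libraries and 38.7 to 50.8 CPM in those labelled LXRα-/- and fell (log2 -0.82, SE 0.12, adjusted p = 3.13e-04). Under library totals Tlr3 and Bst2 overlapped, and under totals without mitochondrial genes Bst2 and Ifi27 both did.

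Of 15 tested recruited macrophage markers, 6 were higher and 2 lower, beside 15.5% and 14.8% of all tested genes, so that the lower ones were no larger a share than among all genes. The median was 0.02, with 0.60 on chow and 0.52 on HFD, and Fcgr4 was the 1 non-overlapping member, beside 1.41% of all tested genes. On HFD 2 of these markers were called higher and 1 lower, beside 0.455% of all genes. Itgax, the integrin CD11c, ranged from 0.356 to 2.19 CPM with a median of 0.955 in the WT libraries and from 2.05 to 8.46 CPM with a median of 4.75 in those labelled LXRα-/- (log2 2.42, SE 0.30, adjusted p = 1.42e-04). Fabp5, a fatty acid binding protein of lipid-laden macrophages, fell (log2 -4.26, SE 0.64, adjusted p = 3.57e-04) and differed between the diets (chow -5.98, HFD -2.53, interaction adjusted p = 0.00394). The summed FPKM of the list was 17.4 to 203 in WT and 22.8 to 48.6 in the libraries labelled LXRα-/-. Dendritic cell and class II genes had 4 higher and 0 lower of 15 (median 0.51, with 1.16 on chow and -0.23 on HFD), among them Batf3, a transcription factor of these cells (log2 1.80, SE 0.31, adjusted p = 7.03e-04). B and plasma cell markers had 3 higher and 0 lower of 12 (median 0.58, with 2.10 on chow and -0.54 on HFD), T and NK cell markers 0 called of 16 (median 0.33, with 1.55 on chow and -0.52 on HFD) and neutrophil markers 1 higher and 1 lower of 12. On HFD, where 0.455% of all genes were called, 1 dendritic or class II gene was higher and 1 T or NK cell marker lower, and with the mitochondrial share as a covariate 0 members of these 4 lists were called. Their part in the rise of the receptor genes was not tested.

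Of the fixed lists, 1 of 20 bile acid genes (Cyp2c70), 1 of 25 cholesterol synthesis genes (Pmvk), 2 of 23 lipoprotein genes (Scarb1 and Apoh) and 1 of 22 lysosomal genes (Lipa) were non-overlapping and lower, beside 0.423% of all tested genes. Cyp2c70, the enzyme that makes muricholic acids in mouse liver, ranged from 87.7 to 784 CPM with a median of 467 in the WT libraries and from 27.8 to 71.5 CPM with a median of 40.6 in those labelled LXRα-/- (log2 -2.95, SE 0.29, adjusted p = 4.86e-06). By group it held 658 to 784 CPM in WT chow, 87.7 to 277 CPM in WT HFD, 35.2 to 71.5 CPM in LXRα-/- chow and 27.8 to 55.9 CPM in LXRα-/- HFD. The difference was larger on chow (-3.77) than on HFD (-2.13, interaction adjusted p = 0.0046). Scarb1, the receptor that takes up cholesterol from HDL, ranged from 119 to 282 CPM with a median of 182 in the WT libraries and from 59.7 to 95.6 CPM with a median of 77.9 in those labelled LXRα-/-, with no overlap under any of the 5 scalings (log2 -1.25, SE 0.16, adjusted p = 1.42e-04). Apoh, a plasma glycoprotein that binds phospholipid, fell (log2 -1.15, SE 0.22, adjusted p = 0.00125), as did Pmvk, a kinase of the mevalonate pathway (log2 -1.47, SE 0.25, adjusted p = 6.26e-04). Lipa, the lysosomal acid lipase that frees cholesterol from its esters, ranged 75.3 to 131 CPM in the WT libraries and 43.1 to 73.1 CPM in those labelled LXRα-/- (log2 -0.60, SE 0.13, adjusted p = 0.00213). Acsl5, which activates long-chain fatty acids and belongs to none of these lists, fell (log2 -1.23, SE 0.25, adjusted p = 0.00149). Apoh, Pmvk, Lipa and Acsl5 overlapped between the labels under library totals, deposited FPKM and totals without mitochondrial genes. Cyp2c70 overlapped under totals without mitochondrial genes only.

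Of the wider pathways, cholesterol synthesis had 0 members higher and 11 lower of 25 (median -0.67), where 15.5% and 14.8% of all tested genes were higher and lower, with the smallest p in Dhcr7, a late enzyme of the pathway (log2 -3.27, SE 0.49, adjusted p = 3.26e-04). Fatty acid synthesis had 1 higher and 12 lower of 20 (median -0.70), with Pnpla3, a lipid droplet protein under SREBP1c, at log2 -5.03 (-5.78 without LXRα-/- HFD replicate 5). Pnpla3 was low in abundance, with a mean of 0.438 FPKM over all libraries. It had 1361 counts in the WT libraries and 44 in those labelled LXRα-/-. The labels of Dhcr7 and of Pnpla3 overlapped. In the model with 1 mean per group, neither list had a member called on HFD, where 0.455% of all genes were called, and neither had one called with the mitochondrial share as a covariate (0.238% of all genes). The median of cholesterol synthesis was -1.25 on chow and -0.22 on HFD, and that of fatty acid synthesis -1.20 on chow and -0.56 on HFD. On chow the mitochondrial share was 3.89% to 5.67% in WT and 18.2% to 29.6% in the libraries labelled LXRα-/-. There share and label cannot be told apart, and the part of the share in these medians was not tested. Known LXR targets had 5 higher and 6 lower of 24 (median 0.08), and Cd5l was the 1 non-overlapping member, beside 1.41% of all tested genes. On HFD 0 of them were higher and 2 lower, and 2 were called with the mitochondrial share as a covariate. Cd5l, Scd1 and Acaca, named for the smallest p, were among the 6 lower ones and do not stand for the list. Scd1, the stearoyl-CoA desaturase, ranged from 1047 to 15208 CPM with a median of 6312 in the WT libraries and from 506 to 4515 CPM with a median of 1884 in those labelled LXRα-/-, so that its labels overlapped (log2 -1.80, SE 0.38, adjusted p = 0.00207). Acaca, the cytosolic acetyl-CoA carboxylase, fell by less (log2 -0.65, SE 0.17, adjusted p = 0.00801). Bile acid genes had 4 higher and 9 lower of 20 (median -0.34), and fatty acid oxidation genes 0 higher and 8 lower of 22 (median -0.41). On HFD 1 bile acid gene and 0 of the oxidation genes were called lower. Lipoprotein genes had 3 higher and 8 lower of 23, with a median of -0.25 that became 0.03 under totals without mitochondrial genes. On HFD 0 lipoprotein genes were higher and 2 lower, beside 0.455% of all genes, and 2 were called with the mitochondrial share as a covariate. Pltp, the phospholipid transfer protein and an LXR target, did not pass (log2 -1.27, SE 0.50, adjusted p = 0.06) but did without any one of WT chow replicates 2 and 3 and LXRα-/- chow replicates 1 and 3 (log2 -1.42 to -1.50), and its difference was 0.02 on chow and -2.56 on HFD (interaction adjusted p = 0.0185).

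**Figure D4:**
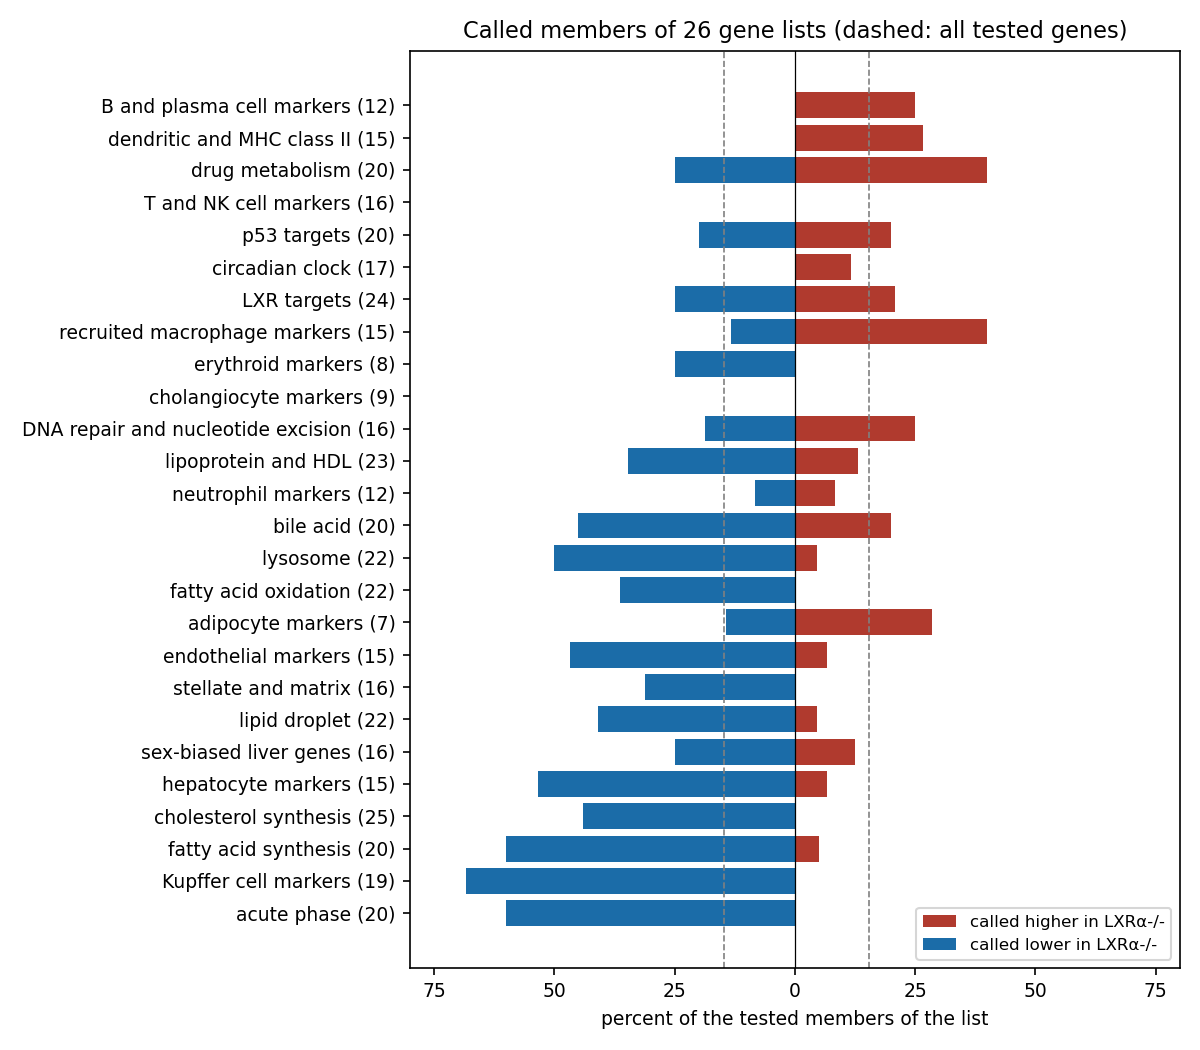
Bars show the percent of tested members of each of 26 gene lists called higher (right) and lower (left) in the libraries labelled LXRα-/-, with the number tested in brackets and lists ordered by median log2 difference. Dashed lines mark the 15.5% and 14.8% of all tested genes, and Kupffer cell markers have 13 of 19 members lower and 0 higher.

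The strongest call of the named genes was Ddb2, which encodes the subunit that recognises ultraviolet damage in DNA. Ddb2 ranged from 1.88 to 4.95 CPM with a median of 2.68 in the WT libraries and from 14.3 to 36.4 CPM with a median of 24.1 in those labelled LXRα-/- and rose (log2 3.003, SE 0.21, adjusted p = 4.99e-08). The gap between the labels was 1.53 on the log2 scale. Its rise was 3.28 on chow and 2.72 on HFD, and the interaction was not called (adjusted p = 0.318). Ddb2 was called also with the mitochondrial share as a covariate and without the WT chow libraries. Of 20 tested p53 targets, a list that holds Ddb2, 4 were higher and 4 lower (median 0.29). Of 16 genes of DNA repair and nucleotide excision, which also hold Ddb2, 4 were higher and 3 lower. These are 8 of 20 and 7 of 16 called, beside 30.3% of all tested genes, and nothing is read from them.

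Ddb2 lies at chr2:91211572-91236960 on the minus strand, and its start coordinate follows the end of Nr1h3 (chr2:91184061-91202834, minus strand) by 8738 bases, with Acp2 (chr2:91202885-91214098, plus strand) between. Coordinates are those of the deposited table and match GRCm38. Acp2, a lysosomal acid phosphatase, overlaps Ddb2 by 2527 bases, and as the strand setting of the counting is not given in the sources used here, reads of the shared stretch are uncertain. Acp2 rose (log2 0.94, SE 0.21, adjusted p = 0.0033), with 0.22 on chow and 1.65 on HFD (interaction adjusted p = 0.00104). It held 43.1 to 48.9 CPM in WT chow, 20.02 to 34.2 CPM in WT HFD, 40.7 to 84.5 CPM in LXRα-/- chow and 80.1 to 88.5 CPM in LXRα-/- HFD. Of 46 tested genes within 2000000 bases on either side of Nr1h3, 7 were higher and 10 lower, beside 15.5% and 14.8% of all tested genes. The share of higher genes is near that of all genes, and the share of lower genes was not tested against it. Ddb2 was the 1 non-overlapping gene of the 46, beside 1.41% of all tested genes, and nothing is read from this count. Their median was -0.13 and became 0.19 under totals without mitochondrial genes.

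**Figure D5:**
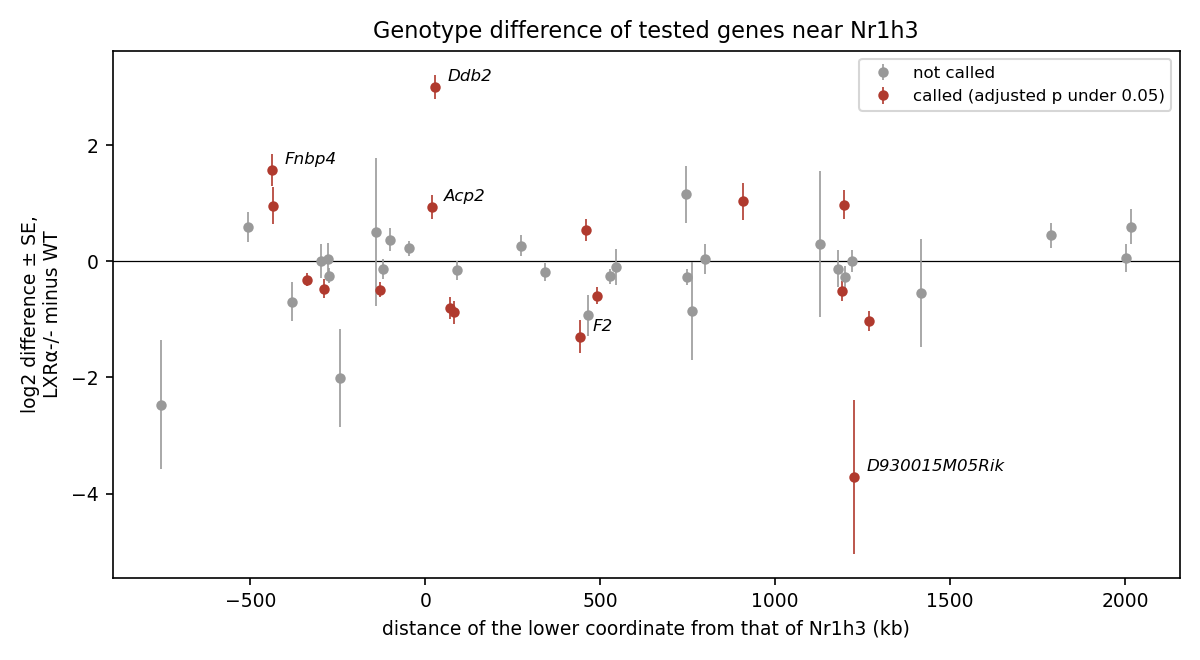
Points show the fitted log2 genotype difference with its SE for tested genes within 2000000 bases of Nr1h3, against the distance of their lower coordinate from that of Nr1h3 in kb. Ddb2 lies above all other genes of the window, and called genes with either sign lie on both sides of Nr1h3.

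Other transporters and enzymes were among the non-overlapping genes. Slco1a4, an uptake transporter of organic anions, ranged from 3.88 to 20.1 CPM with a median of 10.5 in the WT libraries and from 26.2 to 120.0 CPM with a median of 39.2 in those labelled LXRα-/- (log2 2.06, SE 0.31, adjusted p = 3.26e-04). Slc17a3, a transporter of organic anions such as urate, ranged from 26.5 to 45.7 CPM with a median of 37.6 in the WT libraries and from 57.4 to 120.4 CPM with a median of 74.99 in those labelled LXRα-/-, and rose (log2 1.20, SE 0.13, adjusted p = 2.43e-05), with 1.22 on chow and 1.18 on HFD. Rida, which removes reactive imines, rose (log2 1.60, SE 0.26, adjusted p = 5.86e-04), with 2.43 on chow and 0.78 on HFD (interaction adjusted p = 0.0026). Gcnt1, a glycosyltransferase of mucin-type chains, rose by 3.06 on the log2 scale, Amz1, a metalloprotease, by 2.17 and Rnf152, a ubiquitin ligase of lysosomes, by 1.18. As3mt, the arsenic methyltransferase, fell (log2 -1.56, SE 0.27, adjusted p = 7.03e-04). Dera, an aldolase that splits deoxyribose phosphate, fell (log2 -1.29, SE 0.27, adjusted p = 0.00215). Rnf152, As3mt and Dera overlapped under library totals and deposited FPKM, and As3mt and Dera also under totals without mitochondrial genes.

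The rest of the 15 largest rises and falls at a mean of at least 2 FPKM, counted over genes with a proper symbol (no Gm number, Rik name or ID), belonged to no list, and their roles are given as background. Left out by that limit on symbols was 9030622O22Rik (log2 2.52, SE 0.30, adjusted p = 7.20e-05), whose rise was larger than all of these 15 but that of Ddb2. Clk1 and Clk4, kinases of splicing factors, had log2 differences of 1.71 and 1.58, and Rbm39, Srsf11 and Upf3b, which bind RNA in splicing or decay, 1.56, 1.55 and 1.62. Clk1 ranged 9.86 to 53.2 CPM in the WT libraries and 59.4 to 109 CPM in those labelled LXRα-/- and differed between the diets (chow 2.59, HFD 0.84, interaction adjusted p = 5.62e-04). Paxbp1, Wdfy1, Zc3h7a, Cmc4, Fam83f and Lpar6 completed the 15 rises, between 1.37 and 1.78. On the side of the falls, Eef2, the factor that moves the ribosome along, ranged from 359.6 to 2081 CPM with a median of 972 in the WT libraries and from 176 to 341 CPM with a median of 293 in those labelled LXRα-/- (log2 -1.72, SE 0.30, adjusted p = 6.84e-04). Pgk1, a glycolytic kinase, fell by 1.85 on the log2 scale and Ubb, a polyubiquitin gene, by 1.44. Eef2 and Pgk1 fell more on chow (-2.73 and -2.92) than on HFD (-0.71 and -0.78), with interaction adjusted p-values of 3.51e-04 and 5.20e-04. Pdlim1, Litaf, Tmem9, Gnb1 and Mrps18a fell by 1.29 to 1.87 on the log2 scale. Under library totals Clk4, Srsf11, Paxbp1, Wdfy1, Fam83f, Lpar6, Eef2, Pgk1, Ubb, Pdlim1, Tmem9, Gnb1 and Mrps18a overlapped between the labels. Under totals without mitochondrial genes Eef2, Pgk1, Ubb, Tmem9, Gnb1 and Mrps18a overlapped, and under RLE size factors Clk4 did. Processed copies of Eef2, Pgk1 and Ubb elsewhere in the genome make their counts uncertain.

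The length and base composition of annotated transcripts, which the choice of the genes did not use, were set side by side without a test. The median longest transcript was 4229 bases for the 159 protein-coding higher genes, 2468 bases for the 74 lower ones and 3302 bases for all tested. Their median GC content was 42.5%, 52.3% and 49.9%, and their median levels were 1.08, 10.6 and 1.33 FPKM. Called genes as a whole had the same order. The medians of protein-coding called genes were 3927 bases, 45.7% GC and 0.992 FPKM for the higher ones. For the lower ones they were 2766 bases, 51.5% GC and 4.79 FPKM. The part of length, GC content and level in the differences was not tested.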

How the data were processed

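The deposited table holds whole-number counts per gene for 20 libraries and FPKM beside them, per the file headers, and the 705798 counts of 0 are listed by the authors at an FPKM of 0.0001. Build mm8 and the tools StringTie 1.3.0, HISAT2 2.0 and Bowtie 0.12.2 stand in the submitters' processing notes, whereas 55144 of the 55385 IDs are in GENCODE M21 of GRCm38 and 99.6% of these have its start coordinate. The sources used here do not give the counting program, its strand setting or its rule for shared reads. Poly(A) RNA was sequenced in pairs, per the labels' protocols.

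Groups and replicate numbers came from the titles. With edgeR 4.0.16 in R 4.3.3, genes were filtered by filterByExpr over the 4 groups, scaled by TMM and tested with the quasi-likelihood F test on diet plus genotype, two-sided, with Benjamini-Hochberg adjustment over 18905 genes and a threshold of 0.05. The interaction came from a model with 1 mean per group. The SE of a log2 difference was derived from the F statistic. CPM are counts per 1000000 of the TMM-scaled library total. A gene is non-overlapping where the highest CPM of one label is under the lowest of the other. Alternatives used DESeq2 1.42.0, limma 3.58.1, other scalings and filters, covariates and left-out libraries. The fits were also run on simulated counts with the same spread for every gene and no gradient in mitochondrial share. Such a run cannot show whether the calls in these libraries are right.

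Members and lists were chosen with earlier results of these data known. Named were Nr1h3 and Nr1h2, the 15 largest rises and falls among called non-overlapping genes with a mean of at least 2 FPKM and a symbol that is no Gm number, Rik name or ID, every non-overlapping member and the 3 smallest p of each of 26 lists, called genes within 2000000 bases of Nr1h3, and further genes named after their values were seen. Within groups, log2 levels of libraries correlated at 0.941 to 0.985 (40 pairs), and none was identical. Nothing in the labels says that replicates are separate animals, and the p-values reflect variation between libraries only, which may be technical. Depth gives abundant genes small counting error, and floors of 3 counts cover counting error only.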

Additional observations from a re-analysis of the deposited data

Results flagged for a closer look

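Of the 99 genes named with values, 38 had a genotype difference that differed between the diets in edgeR's quasi-likelihood interaction test (adjusted p under 0.05), where 36.5% of the genes called for genotype and 19.4% of all tested genes did. Values are the log2 difference on HFD minus that on chow. Genes lower in the libraries labelled LXRα-/- on both diets, and more so on chow, were Cyp2c70 (1.65), Pdlim1 (2.06), Pgk1 (2.15), Eef2 (2.02), Litaf (1.60), As3mt (1.81), Pmvk (1.36), Tmem9 (1.32), Gnb1 (1.299), Mrps18a (1.36), Scarb1 (0.81), Acsl5 (1.27) and Apoh (1.15) among the non-overlapping genes. With the same pattern but overlapping labels stood Plin3 (1.16), Plin5 (1.36), Fabp5 (3.45), Cps1 (1.83), Fga (3.91), Fgb (2.14), Fgg (2.98), Cyp17a1 (3.03), Cyp7b1 (2.43), Npc2 (0.88) and Ctsl (2.85). Genes higher on both diets, and more so on chow, were Paxbp1 (-1.41), Clk1 (-1.75), Rida (-1.65), Wdfy1 (-1.27), Clk4 (-1.77), Srsf11 (-1.35), Casp1 (-1.92) and 9030622O22Rik (-2.04). Lcn2 had -5.20 on chow and 0.28 on HFD (5.48). Lck had 2.38 on chow and -0.27 on HFD (-2.65). Trbc2 had 2.60 on chow and -0.48 on HFD (-3.08). Acp2 had 0.22 on chow and 1.65 on HFD (1.43). Rpl30-ps3 had 2.005 on chow and -0.07 on HFD (-2.07). Pltp had 0.02 on chow and -2.56 on HFD (-2.58).

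In 5 libraries of a group, the highest or lowest one stood far from the other 4 in 31 of 400 groups looked at, over genes and the mitochondrial share. Chance alone flags about 1 in 20 groups. Values are TMM-scaled CPM of the library that stood apart. In WT chow 1 library was high for As3mt (97.7 CPM), Cfd (6.36 CPM), Cyp17a1 (225 CPM) and Ccr3 (0.0419 CPM). In WT chow 1 library was low for Plin4 (2.62 CPM) and Hbb-bs (114 CPM). In WT HFD 1 library was high for Pgk1 (100.1 CPM), Mrps18a (31.6 CPM), Adipoq (9.35 CPM) and Clec4b1 (0.126 CPM). In WT HFD 1 library was low for Rpl30-ps3 (1.55 CPM) and Adamdec1 (0.329 CPM). In LXRα-/- chow 1 library was high for Cd5l (1.15 CPM), Acp2 (84.5 CPM), Tlr3 (8.42 CPM), H2-M2 (2.86 CPM) and 9030622O22Rik (64.0 CPM). In LXRα-/- chow 1 library was low for Nr1h3 (23.4 CPM), As3mt (6.76 CPM), Tmem9 (2.18 CPM) and Plin4 (5.16 CPM). In LXRα-/- HFD 1 library was high for Paxbp1 (37.3 CPM), Rida (903 CPM), Lck (2.39 CPM) and Adipoq (0.147 CPM). In LXRα-/- HFD 1 library was low for Nr1h3 (27.2 CPM), Ubb (116 CPM), Acsl5 (54.4 CPM), Apoh (363 CPM), Rpl30-ps3 (1.11 CPM) and 1810008I18Rik (10.3 CPM).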

How the results depend on the processing

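Library totals in place of TMM gave 3758 higher and 1793 lower calls (67.7% higher, against 51.2%), totals without mitochondrial genes 5131 and 1325 (79.5% higher), and the median log2 of all genes was 0.05 by TMM, 0.17 by totals and 0.33 by totals without mitochondrial genes. The fit with the mitochondrial share added gave 45 calls (25 higher, 20 lower), in the HFD libraries alone 348 (226 higher, 122 lower) and, chosen after seeing the data, without the 5 WT chow libraries 143 (98 higher, 45 lower). The cause of these differences was not tested, and the last 2 fits held fewer libraries. The other settings (RLE, upper quartile, both filters, DESeq2, limma-voom, group means, clock level, chow alone, each library left out) gave 4620 to 7488 calls. The replicate block gave 5019 calls. Deviations from the group means correlated over 0.1 in 0 of 30 same-numbered pairs, which cannot show whether the numbers pair the libraries. Of the non-overlapping genes, the lower ones numbered 23 by library totals, 25 by deposited FPKM and 18 by totals without mitochondrial genes (311 higher; chosen after seeing the data). Without the WT chow libraries 510 genes (311 higher, 199 lower) did not overlap, a rule that fewer libraries ease. Leaving out one library gave 80 to 135 lower genes, with 131 and 135 without WT HFD replicates 4 and 5 and 121 without LXRα-/- chow replicate 4. For Nr1h3 the mean difference ranged from 0.58 to 0.95. Some named genes changed sign: with the mitochondrial covariate Lck (-0.42), Trbc2 (-0.31) and Cyp7b1 (0.20), on chow alone Pltp (0.039), on HFD alone Lcn2 (0.28), Lck (-0.28), Trbc2 (-0.48) and Rpl30-ps3 (-0.067), and without WT chow Lcn2 (0.28), Lck (-0.27), Trbc2 (-0.48) and Rpl30-ps3 (-0.065). The medians of the neutrophil, cholangiocyte, erythroid, repair and lipoprotein lists and of the neighbours of Nr1h3 turned from negative to positive under totals without mitochondrial genes.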

Other observations

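Several groups of liver genes outside the lipid and macrophage comparisons also had called members, read here against 15.5% higher and 14.8% lower of all tested genes. Acute phase genes had 0 higher and 12 lower of 20 (median -1.43, with -2.51 on chow and -0.22 on HFD). Fga, Fgb and Fgg, the fibrinogen chains, fell by 3.06, 1.59 and 2.04 on the log2 scale, each more on chow than on HFD. Hepatocyte markers had 1 higher and 8 lower of 15 (median -0.62), among them Cps1, the first enzyme of the urea cycle (log2 -1.24, SE 0.29, adjusted p = 0.00363). Drug metabolism genes had 8 higher and 5 lower of 20 (median 0.46, with -0.35 on chow and 0.58 on HFD, 1 called on HFD and 0 with the mitochondrial share as a covariate), and the 3 smallest p stood in Nr1i3, the receptor CAR (log2 1.19, SE 0.22, adjusted p = 0.00102), and the cytochromes Cyp3a25 (log2 1.40) and Cyp3a59 (log2 1.86), all higher. Cyp3a genes are near-identical copies, so their split is uncertain. Clock genes had 2 higher and 0 lower of 17 (median 0.18, with -0.24 on chow and 0.59 on HFD): Nr1d2 or REV-ERBβ, a repressor of the clock (log2 1.31, SE 0.21, adjusted p = 4.42e-04), and Per2, another repressor (log2 1.10, SE 0.26, adjusted p = 0.00447). On HFD 2 clock genes were called higher and 0 lower, beside 0.455% of all genes, and 0 were called with the mitochondrial share as a covariate. The clock level, the log2 mean of Arntl and Npas2 minus that of Dbp and Per3, ran from -6.60 to 0.53 in WT and from -7.24 to -1.28 in the libraries labelled LXRα-/-, and its part in these differences was not tested. Sex-biased liver genes had 2 higher and 4 lower of 16 (median -0.51). Cyp17a1, an enzyme of steroid synthesis, was lower (log2 -2.76, SE 0.63, adjusted p = 0.00348). Cyp2b13, a cytochrome, was higher (log2 4.27, and 3.63 without LXRα-/- chow replicate 3).

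Lysosomal genes had 1 higher and 11 lower of 22 (median -0.34), with Ctsl, a cathepsin (log2 -2.26, SE 0.41, adjusted p = 8.68e-04), and Npc2, which carries cholesterol out of lysosomes (log2 -1.12, SE 0.16, adjusted p = 2.73e-04). Lipid droplet genes had 1 higher and 9 lower of 22 (median -0.50). The coat proteins differed in sign, as Plin4 rose (log2 1.77, SE 0.31, adjusted p = 7.22e-04) while Plin3 (log2 -1.19, SE 0.18, adjusted p = 3.03e-04) and Plin5 (log2 -1.26, SE 0.23, adjusted p = 8.21e-04) fell. Endothelial markers had 1 higher and 7 lower of 15 (median -0.44), and stellate and matrix genes 0 higher and 5 lower of 16 (median -0.49), with Col1a1, a collagen chain, lower (log2 -1.35, SE 0.23, adjusted p = 6.01e-04). Adipocyte markers had 2 higher and 1 lower of 7, with Cfd or adipsin higher (log2 3.17, SE 0.85, adjusted p = 0.00885) and Adipoq lower (log2 -4.68, SE 1.43, adjusted p = 0.0184), which did not pass without WT chow replicate 1 (log2 -4.02, adjusted p = 0.0719) or WT HFD replicate 1 (log2 -2.45, adjusted p = 0.179). Erythroid markers had 0 higher and 2 lower of 8, the haemoglobin chains Hbb-bs and Hbb-bt, and cholangiocyte markers had 0 called of 9. On HFD, in the model with 1 mean per group, 0.455% of all genes were called. There 0 members of the acute phase, hepatocyte, sex-biased, lipid droplet, endothelial, adipocyte and erythroid lists were called. Of the lysosomal list 1 was higher and 0 lower, and of the stellate and matrix list 0 were higher and 1 lower. At that background nothing is read from these counts. None of these lists held a non-overlapping gene except Lipa of the lysosomal and Cdh5 of the endothelial list, beside 1.41% of all tested genes.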
